A study of Homo sapiens with 4 samples.

Results

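The miR-183 cluster (hsa-miR-183, hsa-miR-96 and hsa-miR-182) is a group of 3 miRNA hairpins that lie close together on chromosome 7 and are cut from 1 primary transcript. Its assays were chosen by name, as every assay called miR-183, miR-96 or miR-182 with or without an asterisk, which gave 6 of the 737 miRNA assays on the panels, both arms of each hairpin. Total RNA of U2OS, an osteosarcoma cell line of human origin, was read by quantitative PCR in 4 samples, with 1 sample per group and so no replicate of any value below. The shDDX1 sample was made from U2OS cells after infection with a lentivirus for a short hairpin RNA against DDX1, and the shNS sample from cells infected with one for a control short hairpin RNA, both selected with puromycin at 2 µg/ml. The NCS sample came from cells treated with neocarzinostatin at 500 ng/ml for 6 h, and the untreated sample from U2OS cells without it, neither of which is labelled as infected. DDX1 is a DEAD-box RNA helicase, and the series asks which miRNAs depend on it for processing of their primary transcripts. Neocarzinostatin is an enediyne that breaks both strands of DNA. The extent of the DDX1 knockdown is not analysed here.

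A miRNA hairpin is cut out of the primary transcript by Drosha, trimmed to a duplex by Dicer, and 1 of the strands is usually kept as the guide. The assay names follow an older convention in which the asterisk marks the less abundant strand, and for these hairpins the names without it are the 5p arms. The cluster is known for its expression in photoreceptors and in hair cells of the inner ear, and its guide strands are often abundant in tumours, where miR-182 and miR-96 repress FOXO transcription factors. miR-182 also represses BRCA1, a protein of homologous recombination.

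The mature sequences, taken from RefSeq for GRCh38.p14 by name, are shown because the guide strands share most of the seed, the stretch that pairs with targets. The seed, bases 2 to 8 counted from 1 at the 5′ end, is in capitals.
miR-183: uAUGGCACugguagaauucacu
miR-96: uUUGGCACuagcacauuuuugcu
miR-182: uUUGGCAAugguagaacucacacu
miR-183*: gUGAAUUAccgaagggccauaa
miR-96*: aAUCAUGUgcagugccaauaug
miR-182*: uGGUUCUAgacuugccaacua
The seeds of miR-183 and miR-96 were identical at 6 of 7 bases and differed by A2U, the miR-183 base first. Those of miR-96 and miR-182 were also identical at 6 of 7 and differed by C8A, the miR-96 base first, and miR-183 and miR-182 were identical at 5 of 7. The opposite arms had 3 unrelated seeds, with 0 to 3 of 7 bases in common between pairs. Among all RefSeq mature miRNAs of the table, the seed of miR-96 was found in 1 other, miR-1271-5p (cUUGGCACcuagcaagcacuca, chr5:176367960-176367981, plus strand), and the other 5 seeds in none.

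All 3 hairpins lie on the minus strand of chromosome 7, in the order miR-183, miR-96, miR-182 along the transcript. In GRCh38.p14 the 5p arms lie at chr7:129774967-129774988 for miR-183, chr7:129774739-129774761 for miR-96 and chr7:129770447-129770470 for miR-182. The 5′ ends of miR-183 and miR-96 are thus 227 bases apart, and that of miR-182 lies a further 4291 bases downstream. The hairpins of miR-96 and miR-182, the guide strands that differed most in both comparisons, are shown with both arms in capitals. The arms are separated by 20 bases in each.
MIR96 (chr7:129774692-129774769, minus strand): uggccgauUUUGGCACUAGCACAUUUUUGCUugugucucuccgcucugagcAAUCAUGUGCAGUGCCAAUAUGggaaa
MIR182 (chr7:129770383-129770492, minus strand): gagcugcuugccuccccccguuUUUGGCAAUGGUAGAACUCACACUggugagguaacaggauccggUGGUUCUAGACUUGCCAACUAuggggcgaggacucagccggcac

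The deposited value of a well is its quantification cycle (Ct), the PCR cycle at which fluorescence passes a threshold, so that a lower Ct means more template and 1 cycle was taken as 1 doubling. Of 740 miRNA wells, 723 read under Ct 35 in shDDX1, 732 in shNS, 591 in NCS-treated and 521 in untreated cells. The mean Ct of the 499 wells under 35 in all 4 samples was 26.1 in shDDX1, 25.8 in shNS, 29.4 in NCS-treated and 30.1 in untreated cells. Levels were therefore centred on that mean in each sample, and ratios were taken within a pair. All 8 mesenchymal marker miRNAs on the panels read under 35 in every sample, led by miR-21 at Ct 17.2 in shDDX1, 16.6 in shNS, 19.7 in NCS-treated and 23.4 in untreated cells, while the earliest of 6 blood markers in any sample was miR-142-3p, at 25.7 in shNS. Of 6 neural markers the earliest was miR-128, at Ct 21.1 in shDDX1 and 18.5 in shNS, earlier than the mesenchymal medians of 23.3 in shDDX1 and 23.2 in shNS. Wells repeated on the panels gave the only measure of technical spread. The SD of a log2 ratio over 7 assays present on both panels was 0.38 for the knockdown and 0.79 for NCS, or 0.35 for NCS without miR-423-5p. Among these assays miR-103, miR-191, miR-423-5p and the small RNAs U6, SNORD38B and SNORD49A all lie in column 2 of the plates. miR-96 and miR-183, in columns 17 and 10, had no repeated well, so the SD may not hold for their part of the plate. The place of a well on the plate moved with the ratios of the members in both comparisons, and its values are given beside them.

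miR-183, miR-96, miR-96* and miR-182 were on panel I, in wells N10, K17, L5 and O5. miR-183* and miR-182* were on panel II, in wells M24 and G11. miR-183, miR-96 and miR-182* were thus in the middle columns of a plate, 7 to 18, and the other 3 in the outer ones.

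**Figure D1:**
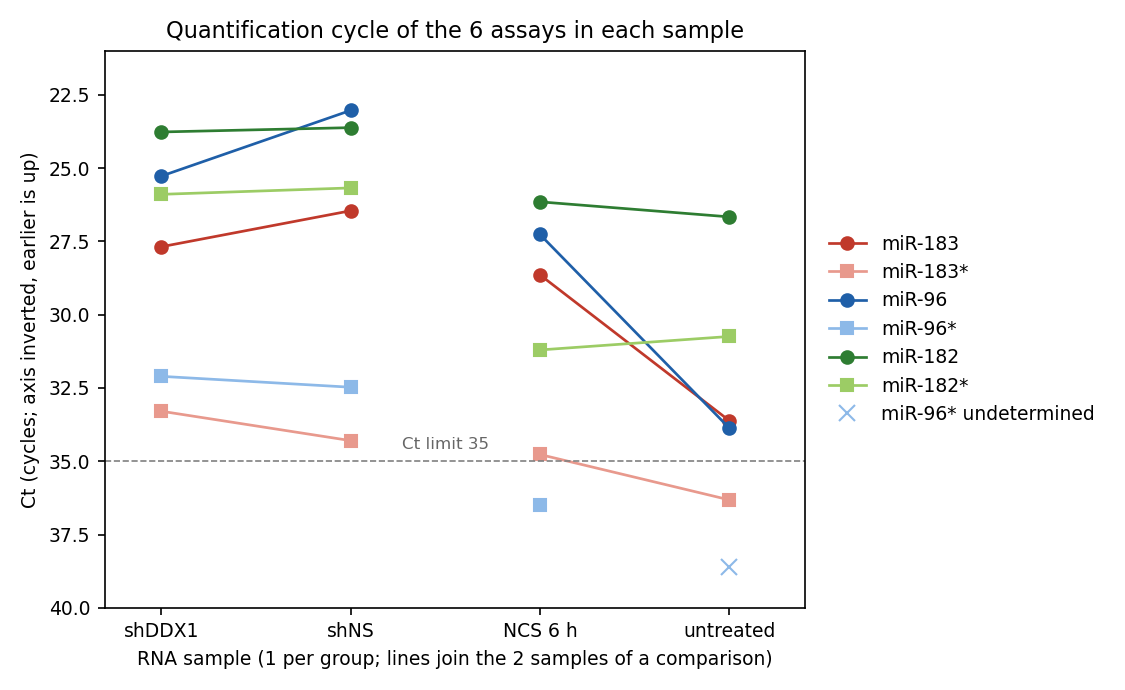
Quantification cycle (Ct, cycles, axis inverted so that earlier readings are higher) of the 6 assays in the 4 RNA samples, with circles for 5p arms, squares for 3p arms, lines joining the samples of a comparison and a cross for the undetermined miR-96* well, whose height has no scale. miR-96 and miR-183 read between Ct 23.0 and 28.6 in shDDX1, shNS and NCS-treated cells and at 33.9 and 33.6 in untreated cells, while miR-182 stayed between 23.6 and 26.7.

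In shDDX1 cells miR-96 was lower than in shNS cells, whereas both arms of miR-182, from the same transcript, were close to the median of all miRNAs. hsa-miR-96 read Ct 25.3 in shDDX1 and 23.0 in shNS, a log2 ratio of -1.94 after centring, or 3.83-fold lower. Only 47 of the 716 miRNAs quantified in this pair, those under Ct 35 in both samples, had a lower ratio. It was at least 2-fold lower in all 9 scalings tried, between -2.60 and -1.23.

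hsa-miR-183, whose hairpin is the closest to that of miR-96, read Ct 27.7 in shDDX1 and 26.5 in shNS. Its log2 ratio of -0.92, or 1.9-fold lower, missed 2-fold. It was below 0 in all 9 scalings and passed 2-fold in 4 of them. With the middle and outer columns of each panel centred separately it was at -0.22, within the technical SD of 0.38.

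hsa-miR-182 read Ct 23.8 in shDDX1 and 23.6 in shNS, a log2 ratio of 0.16. Its opposite arm miR-182* read 25.9 in shDDX1 and 25.7 in shNS, a log2 ratio of 0.09. Neither reached 2-fold in any of the 9 scalings, in which miR-182 lay between -0.51 and 0.58 and miR-182* between -0.58 and 0.09. miR-182* was below 0 in 8 of them.

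The opposite arms of the other hairpins stood on the higher side in shDDX1. miR-96* read Ct 32.1 in shDDX1 and 32.5 in shNS, a log2 ratio of 0.68, and hsa-miR-183* read 33.3 in shDDX1 and 34.3 in shNS, a log2 ratio of 1.31 or 2.47-fold higher. miR-183* passed 2-fold in 3 of 9 scalings and miR-96* in 2, and miR-96* was at 0.01 against the small RNAs. Both assays read late. A water well on panel I gave Ct 27.3 in shDDX1 and 27.8 in shNS, earlier than miR-96* in both. The earliest on panel II gave 26.5 in shDDX1 and 26.6 in shNS, earlier than miR-183* in both. miR-183 in shDDX1 also read later than the panel I water well. The part of background signal in these values was not tested.

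Counted together, 1 of the 6 assays was 2-fold or more higher in shDDX1, 1 was 2-fold or more lower and 4 were in between. Of the 716 miRNAs in this pair 11% were 2-fold or more higher and 17.3% lower by as much, so the count of members is near the background. The median of the 6 log2 ratios was 0.12, against 0.04 over all quantified miRNAs.

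The log2 ratios of the arms were also set against each other within a hairpin. That of miR-96 minus that of miR-96* was -2.61, between 2 wells of the same panel, and -2.61 to -2.02 over the 9 scalings. That of miR-183 minus that of miR-183*, on different panels, was -2.23 and ran from that to -0.97 over the scalings. As miR-96* and miR-183* each read later than the earliest water well of its panel, these gaps are not measured against an assay above background. For miR-182 and miR-182* the gap was 0.07 to 0.99 over the scalings. The technical SD of such a gap, from the repeated wells, was 0.54, so the smallest gap of the miR-183 arms was under 2 SDs and about the size of the largest of the miR-182 arms.

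Plate position went with these values. Of the 185 quantified wells in the middle columns of panel I, which hold miR-96 and miR-183, 41.1% were at least 2-fold lower in shDDX1, with a median log2 ratio of -0.82. In the outer columns, which hold miR-182 and miR-96*, 16.6% of 181 wells were, with a median of -0.22. Of the 185 middle wells 38 were lower than miR-96 and 82 lower than miR-183, so miR-183 lay near the middle of its block. Among the 23 quantified wells within 2 rows and 2 columns of miR-96 the median was -0.47, and miR-96 was lower than that by 1.47. miR-183 was lower than the median of its 24 neighbours by 0.67. The part of plate position in the ratio of miR-96 was not tested beyond these values.

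**Figure D2:**
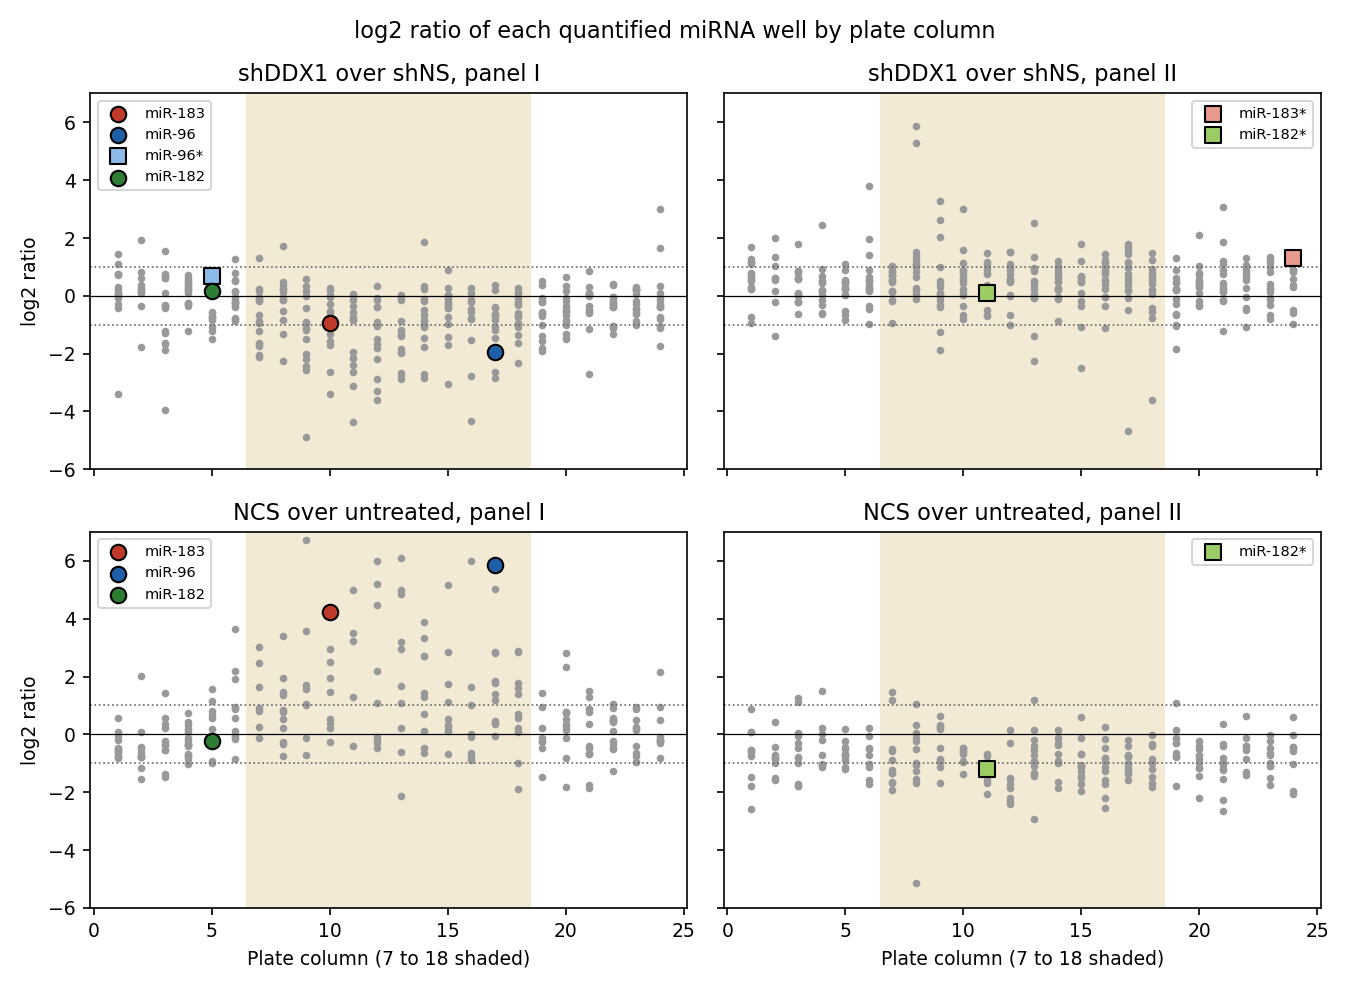
log2 ratio of every quantified miRNA well (grey) against its plate column, for shDDX1 over shNS (top) and NCS over untreated (bottom) on panel I and panel II, with the cluster assays in colour, columns 7 to 18 shaded and 2-fold marked by dotted lines. 5 wells of the knockdown and 3 of NCS lie outside the axis of -6 to 7. miR-96 and miR-183 sit in the shaded columns of panel I at -1.94 and -0.92 in the knockdown and at 5.87 and 4.24 after NCS.

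After NCS miR-96 and miR-183 were much higher than in untreated cells, and miR-182 was not. miR-96 read Ct 27.3 in NCS-treated and 33.9 in untreated cells, a log2 ratio of 5.87, or 58.4-fold higher, at rank 8 from the top among 498 quantified miRNAs. miR-183 read 28.6 in NCS-treated and 33.6 in untreated cells, a log2 ratio of 4.24, or 18.9-fold higher, at rank 16. Both were at least 2-fold higher in all 9 scalings, miR-96 between 4.10 and 6.66 and miR-183 between 2.47 and 5.03. Their readings in untreated cells were late, and under a limit of Ct 32 in place of 35 neither was quantified in this pair.

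miR-182 read Ct 26.2 in NCS-treated and 26.7 in untreated cells. Its log2 ratio was -0.22, smaller than the technical SD of 0.79, and it changed sign between scalings, with 5 of 9 below 0 and the lowest, with each panel centred separately, at -1.02. miR-182* read 31.2 in NCS-treated and 30.7 in untreated cells, a log2 ratio of -1.19 or 2.28-fold lower. Of the 9 scalings, 2 put miR-182* at least 2-fold lower. With its neighbouring wells subtracted it was at -0.09.

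The opposite arms of the 2 hairpins with the large ratios could not be quantified in this pair. miR-183* read Ct 34.8 in NCS-treated and 36.3 in untreated cells, and with a limit of Ct 37 in place of 35 its log2 ratio was 0.76. miR-96* read 36.5 in NCS-treated cells and was undetermined in untreated cells.

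Of the 4 assays quantified in this pair 2 were 2-fold or more higher, 1 was 2-fold or more lower and 1 was in between. Of the 498 miRNAs in this pair 16.9% were higher and 22.3% lower by as much. The median of the 4 was 2.01, against -0.38 over all, and it lies between members that stood far apart. The log2 ratio of miR-96 exceeded that of miR-182 by 6.09, a 68-fold gap, and that of miR-183 exceeded it by 4.46, a 22-fold gap. Over the 9 scalings these gaps were 4.35 to 6.09 and 2.72 to 4.46, against a technical SD of a gap of 1.12. miR-96 exceeded miR-183 by 1.63.

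Plate position went with the NCS values as well. In the middle columns of panel I 55.8% of 113 quantified wells were at least 2-fold higher, with a median log2 ratio of 1.21, and in the outer columns, where miR-182 lies, 10% of 140 wells were, with a median of -0.16. Within the middle columns 7 wells were higher than miR-96 and 15 higher than miR-183, where the upper quartile was 2.84. The 13 quantified neighbours of miR-96 ranged from -0.22 to 5.03 with a median of 1.11, and miR-96 exceeded that median by 4.76 and each of the 13 wells. The 16 neighbours of miR-183 ranged from -0.74 to 3.51 with a median of 0.69, and miR-183 exceeded that median by 3.55 and each of the 16 wells. In the middle columns of panel II, which hold miR-182*, 45.4% of 130 quantified wells were at least 2-fold lower after NCS, with a median of -0.96, close to the -1.19 of miR-182*.

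The readings of NCS-treated and untreated cells were also set against those of shNS. miR-96 read 4.23 cycles later in NCS-treated and 10.8 cycles later in untreated cells, where the wells of its block that gave a Ct read 3.48 cycles later in NCS-treated and 5.82 later in untreated cells at the median. It was thus farther from its block in untreated than in NCS-treated cells. miR-183, in the same block, read 2.18 cycles later than in shNS in NCS-treated and 7.16 later in untreated cells, ahead of the block median in NCS-treated and behind it in untreated cells by about as much. miR-182 read 2.53 cycles later in NCS-treated and 3.04 later in untreated cells, with block medians of 3.63 in NCS-treated and 4.49 in untreated cells. Whether the late readings of miR-96 and miR-183 in untreated cells came from less miRNA or from loss of signal in those wells was not tested.

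**Figure D3:**
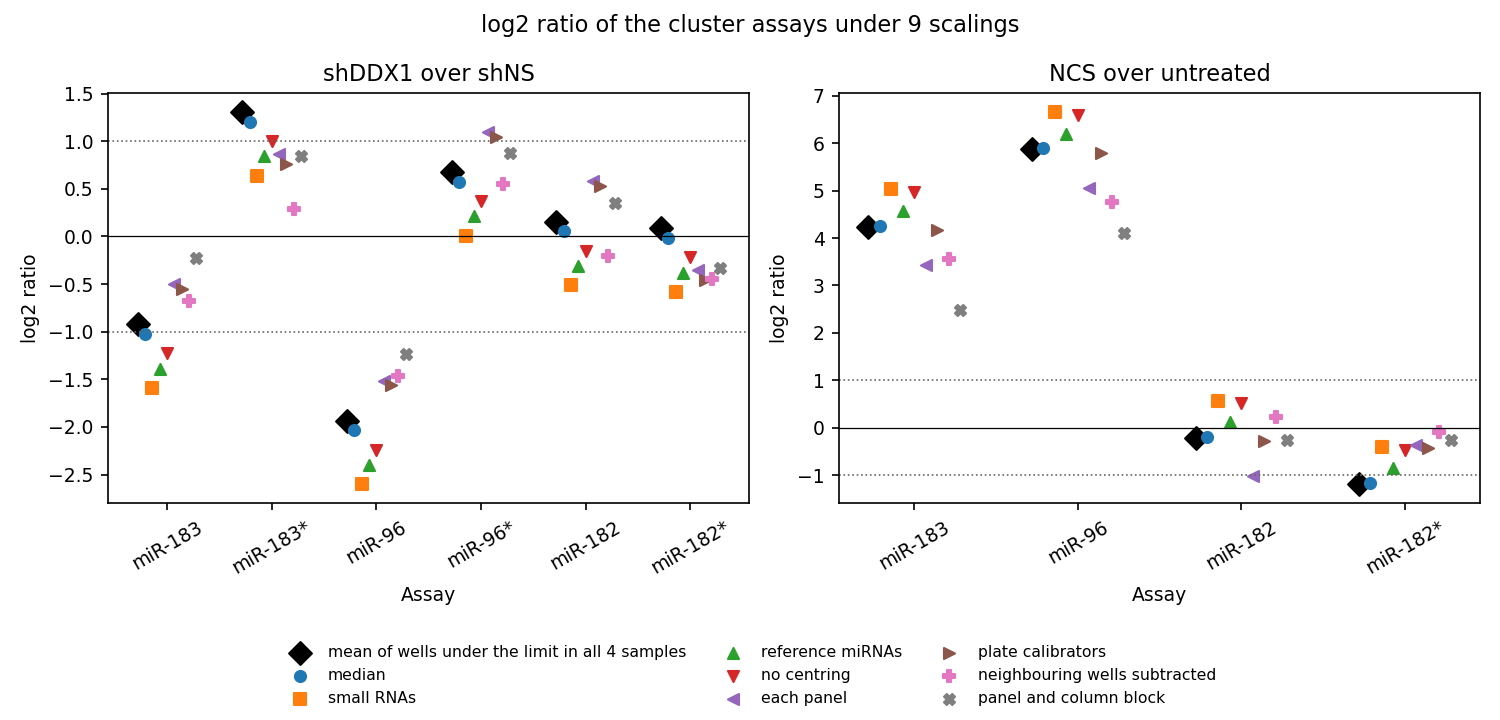
log2 ratio of each cluster assay (x axis) under 9 scalings, for shDDX1 over shNS (left, 6 assays) and NCS over untreated (right, the 4 quantified assays), with 2-fold marked by dotted lines. miR-96 stays below -1 on the left and miR-96 and miR-183 above 1 on the right under each scaling, while miR-182 lies on both sides of 0 in both.

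Over the 4 samples, the centred level of miR-96 was 0.86 in shDDX1, 2.80 in shNS, 2.10 in NCS-treated and -3.76 in untreated cells, in log2 units above or below the mean well. shNS stood above NCS by 0.69, NCS above shDDX1 by 1.24 and shDDX1 above untreated by 4.63. Each was larger than the technical SD of a ratio between those samples, 0.37 to 0.71. That SD comes from repeated wells of the same samples, so it holds no spread between cultures and does not settle the order. The centred level of miR-183 was -1.55 in shDDX1, -0.63 in shNS, 0.73 in NCS-treated and -3.51 in untreated cells. The centred level of miR-182 was 2.37 in shDDX1, 2.21 in shNS, 3.21 in NCS-treated and 3.43 in untreated cells, so that its neighbours in order, untreated and NCS and then shDDX1 and shNS, differed by less than the technical SD. miR-182* was at 0.24 in shDDX1, 0.15 in shNS, -1.84 in NCS-treated and -0.65 in untreated cells. The pairs were handled separately, and levels across them are given as a description.

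miR-96 thus passed 2-fold in both comparisons, lower in the knockdown and higher with NCS, as did 6.65% of the 496 miRNAs quantified in both comparisons. miR-183 met this under 4 of the 9 scalings, and miR-182 under none. In the middle columns of panel I, which hold miR-96 and miR-183, 41.1% of 185 wells were at least 2-fold lower in shDDX1. There 55.8% of 113 wells were at least 2-fold higher after NCS. The share past 2-fold in both comparisons was not counted by plate block, so 6.65% is not the share of that block.

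Over the 496 assays the profiles most like that of miR-96, by the root mean square distance of levels over the 4 samples, each taken minus its own mean, were those of miR-425 at 0.35, miR-155 at 0.41 and miR-449a at 0.50 cycles. All 3 lie in the middle columns of panel I. Nearest to miR-183 were miR-148b at 0.33, miR-34c-5p at 0.34 and miR-135a at 0.37, the last in the well beside it. Nearest to miR-182 were miR-137 at 0.06, miR-26a-1* at 0.07 and miR-345 at 0.08, and nearest to miR-182* were miR-638 at 0.11, miR-609 at 0.16 and miR-1254 at 0.19. From miR-183, miR-96 was at 1.36 cycles, with 89 assays closer, and miR-182 at 1.76, with 220 closer, so no member was among the nearest to another.

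The spread among these assays was set beside that of other groups of miRNA genes lying within 10 kb of each other on 1 strand, with at least 4 quantified assays. After NCS the SD of the log2 ratios within the miR-183 cluster was 3.41 over 4 assays, above the 3.32 of the pair miR-191 and miR-425, the next of 13 other groups, whose median was 1.03. By range that pair came first, with the miR-183 cluster at 7.06 and the pair at 7.09. It stayed above all 13 in 8 of the 9 scalings, of which 5 shift all assays alike and give the same SD, and with panels and column blocks centred separately 1 group was higher, at 2.51 against 2.15. In the knockdown the SD was 1.16 over 6 assays, and 7 of 21 other groups had a larger one, with a median of 1.04. Assays of a group lie in different places on the plates, and the part of that in the SDs was not tested.

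**Figure D4:**
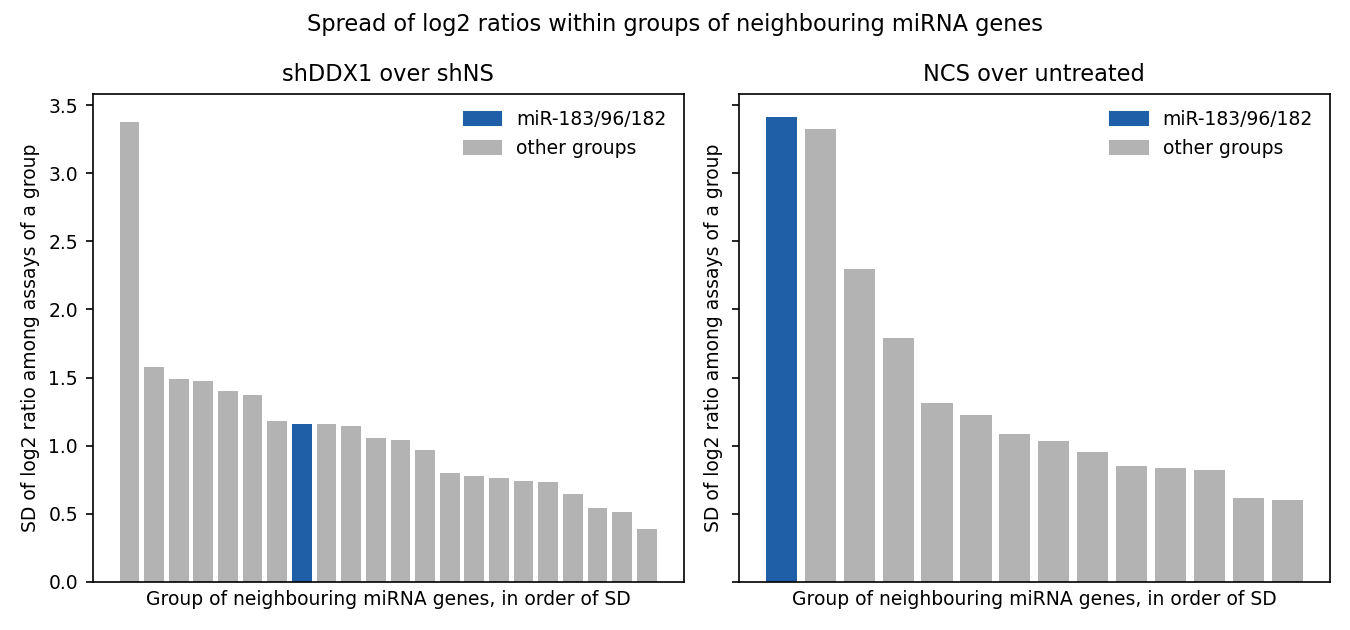
SD of the log2 ratios among the quantified assays of each group of neighbouring miRNA genes (y axis, log2 units), in order of SD, for shDDX1 over shNS (left) and NCS over untreated (right), with the miR-183 cluster in blue. The cluster stands at 1.16 among 21 other groups in the knockdown and at 3.41, above 13 others, after NCS.

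miR-1271, the seed relative of miR-96 from another locus, on chromosome 5, had log2 ratios of the opposite sign to those of miR-96. It read Ct 26.55 in shDDX1 and 26.93 in shNS, a log2 ratio of 0.69. The earliest water well of panel II read earlier in both, at 26.50 in shDDX1 and 26.6 in shNS. The knockdown ratio of miR-1271 is thus not shown to be that of an assay above background. It read 30.3 in NCS-treated and 29.9 in untreated cells, a log2 ratio of -1.12. Its well is in the outer columns of panel II, where the median was 0.38 in the knockdown and -0.72 after NCS.

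Other miRNAs reported to repress a FOXO factor were spread around the median of all miRNAs in the knockdown. Of 13 listed, 1 was at least 2-fold higher in shDDX1, miR-370 at 1.27, and 1 lower, miR-155 at -1.53, with a median of 0.03, where 11% of all quantified miRNAs were higher and 17.3% lower. After NCS 3 of 12 quantified were higher and 1 lower, against 16.9% higher and 22.3% lower over all, from miR-223 at -1.03 to miR-155 at 6.00, with a median of 0.18 against -0.38 over all. All 13 lie on panel I, where the NCS medians were 1.21 in the middle and -0.16 in the outer columns. On panel II these medians were -0.96 and -0.72, so the value over all miRNAs is not that of panel I. In the middle columns of panel I 2 of 6 of the list were higher after NCS, where 55.8% of all wells were. In shDDX1 1 of 6 there was lower, where 41.1% of all wells were.

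Of 18 other miRNAs reported to repress a gene of the DNA damage response, 6 were at least 2-fold lower and 0 higher in shDDX1, against 17.3% lower and 11% higher over all. They ran from miR-146b-5p, which represses BRCA1, at -1.99 to miR-373 at 0.48, with a median of -0.42 against 0.04 over all. After NCS 7 of 16 quantified were higher and 1 lower, from miR-100 at -1.87 to miR-101, which represses ATM, at 6.72, with a median of 0.34, against 16.9% higher and 22.3% lower over all. Plate position moved with this list too. In shDDX1 5 of its 10 miRNAs in the middle columns of panel I were lower, where 41.1% of all wells were. After NCS 5 of its 9 there were higher, where 55.8% of all wells were, so both counts are near the share of the block. Of 6 other miRNAs of retina, inner ear or neurons 2 were lower and 0 higher in shDDX1, from miR-211 at -2.12 to miR-181a at 0.61, and of 5 quantified after NCS 1 was higher and 1 lower, from miR-181a at -1.17 to miR-9 at 1.43. The shares over all miRNAs were 17.3% lower and 11% higher in shDDX1, and 16.9% higher and 22.3% lower after NCS. All 6 lie on panel I. There 41.1% of middle and 16.6% of outer wells were lower in shDDX1, and 1.62% of middle and 3.87% of outer wells higher. The 5 quantified after NCS lie in its outer columns, where 10% of wells were higher and 7.14% lower.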

How the data were processed

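Mature miRNA of 4 U2OS samples was measured after Trizol extraction and an Exiqon reverse transcription kit, with SYBR Green on a 2-panel Exiqon set of 384 wells each, per the labels. The sources used here name no instrument, threshold or baseline. Deposited by the authors were Ct scores per well, a table of shifted Ct scores, and a linear fold or ratio of each sample over its control. The shift is not explained in the sources used here. The Ct table was the starting point. In the fold table, 2 control columns set to 1 were not used.

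Levels were minus Ct, centred per sample on the mean of miRNA wells under Ct 35 in all 4 samples, and log2 ratios were differences of levels. Assays under Ct 35 in both samples of a pair were quantified, and 2-fold was the threshold. Assays on both panels were averaged, and bracketed names, spike-ins and water wells were left out. With 1 sample per group no p-value was computed. Simulated tables with 4-fold changes were recovered at 100% of 198 changed wells for the knockdown and 100% of 200 for NCS. Those tables held no effect of plate position on the ratios and no undetermined wells. Their recovery is a check of the code and says nothing about the ratios of the real samples. The 9 scalings were the mean, the median, small RNAs (U6, SNORD38B and SNORD49A), reference miRNAs (miR-191, miR-103 and miR-423-5p), no centring, each panel, plate calibrators, subtraction of the median over neighbouring wells (up to 2 rows and 2 columns away), and the middle and outer columns of each panel centred separately. The last scaling and the column limits of 7 and 18 came from earlier looks at these data. The members and lists were likewise chosen with earlier results of these data known. Named were all assays of the cluster, miR-1271, the 3 nearest profiles of each member and the lowest and highest of each list. For the gene groups, 572 of 737 assays matched 1 miRNA gene of RefSeq for GRCh38.p14 by name. Python 3.11.15, numpy 2.4.6 and pandas 2.3.3 were used.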

Additional observations from a re-analysis of the deposited data

Results flagged for a closer look

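Water wells lie outside the comparisons, and 7 of 9 gave a Ct in shDDX1 and 6 of 9 in shNS. The earliest of them read Ct 26.5 in shDDX1 and 26.6 in shNS, both in well P22 of panel II, while 0 of 9 water wells gave a Ct in NCS-treated or untreated cells. On panel I the earliest was 27.3 in shDDX1 and 27.8 in shNS. The mean Ct of the 499 wells under 35 in all samples was 26.1 in shDDX1 and 25.8 in shNS. How many of the 716 miRNAs behind the shares for the knockdown also read later than water was not counted. Of the cluster, miR-183* and miR-96* read later than the earliest water well of their panel in both samples, miR-183 only in shDDX1, and miR-96, miR-182 and miR-182* in neither.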

How the results depend on the processing

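No paired analysis was possible because there is only 1 sample in a group. Of the members past 2-fold, none changed sign under any alternative run in which it was quantified. Under a limit of Ct 32 miR-183* and miR-96* were not quantified in shDDX1 over shNS and have no value. Separate centring of column blocks was added after seeing the data. Log2 ratios that moved by more than the technical SD follow, and the cause was not tested. That SD was 0.38 for the knockdown and 0.79 for NCS, or 0.35 for NCS without miR-423-5p. For shDDX1 over shNS (as reported: miR-96 -1.94, miR-183 -0.92, miR-183* 1.31, miR-96* 0.68, miR-182 0.16, miR-182* 0.09), against small RNAs they were -2.60 for miR-96, -1.59 for miR-183, 0.64 for miR-183*, 0.0090 for miR-96*, -0.51 for miR-182 and -0.58 for miR-182*. Against reference miRNAs they were -2.40, -1.39, 0.84, 0.21, -0.31 and -0.38 in that order of assays. With each panel centred they were -1.51, -0.50, 0.87, 1.10, 0.58 and -0.35. With neighbouring wells subtracted miR-96 was at -1.47, miR-183* at 0.29 and miR-182* at -0.45. With column blocks centred miR-96 was at -1.23, miR-183 at -0.22, miR-183* at 0.85 and miR-182* at -0.33. With plate calibrators miR-183* was at 0.76 and miR-182* at -0.46. For NCS over untreated (as reported: miR-96 5.87, miR-183 4.24, miR-182 -0.22, miR-182* -1.19), with each panel centred they were 5.06, 3.43, -1.02 and -0.37 in that order. With neighbouring wells subtracted miR-96 was at 4.76 and miR-182* at -0.088, and with column blocks centred miR-96 was at 4.10, miR-183 at 2.47 and miR-182* at -0.26. Under a limit of Ct 32 miR-96 and miR-183 were not quantified in this pair and have no value. Moves within the SD of 0.79 put miR-182* at -0.40 against small RNAs, -0.46 without centring and -0.43 with plate calibrators. In both of the authors' deposited tables it was at -0.41, and without a Ct limit at -1.39. The range of the members was 3.24 in the knockdown, and 2.61 with each panel centred or with plate calibrators, 2.02 with neighbouring wells subtracted and 2.11 with column blocks centred. After NCS it was 7.06, and 4.85 with neighbouring wells subtracted and 4.36 with column blocks centred.

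Shares of all quantified miRNAs moved by over 1.5 times as follows. Higher in shDDX1 were 11%, and 6.22% under Ct 32, 5.87% without centring and in both of the authors' deposited tables, 6.84% with column blocks centred, 6.28% with plate calibrators, 4.47% against reference miRNAs, 3.35% against small RNAs, 23.3% at 1.5-fold and 1.82% at 4-fold. Lower in shDDX1 were 17.3%, and 29.3% against reference miRNAs, 35.9% against small RNAs, 27.9% at 1.5-fold and 6.01% at 4-fold. Higher after NCS were 16.9%, and 28.9% without centring, 31.7% against small RNAs, 31.3% in both of the authors' deposited tables and 8.23% at 4-fold. Lower after NCS were 22.3%, and 12.7% under Ct 32, 12.6% with neighbouring wells subtracted, 5.82% without centring, 7.83% with plate calibrators, 13.7% against reference miRNAs, 5.02% against small RNAs, 6.43% in both of the authors' deposited tables, 40.6% at 1.5-fold and 2.81% at 4-fold. Another 139 values stayed within these bounds.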

Other observations

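In the authors' deposited table of folds miR-96 stands at 69.3 and miR-183 at 21.8 for NCS over untreated, and miR-182 at 0.918. For shDDX1 over shNS the authors' deposited table gives 0.212 for miR-96, 0.427 for miR-183 and 0.903 for miR-182. miR-96*, undetermined in untreated cells in the Ct table, carries a shifted Ct of 32.3 for that sample in the authors' deposited table and a fold of 1.58 after NCS. How that number was made is not given in the sources used here. miR-183*, whose Ct in untreated cells was 36.3, carries a fold of 3.35 in the authors' deposited table.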
